A study of Rattus norvegicus with 99 samples.

Results

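Fatty acid uptake and oxidation genes form a list of 33 genes that carry long-chain fatty acids into the cardiomyocyte, into its mitochondria and through β-oxidation, together with enzymes and regulators that decide how much fat the heart burns. Members were found by symbol in the deposited table, and all 33 of the list were among its 17337 genes. Of these, 32 had enough counts to be tested in every chamber. The remaining member, Echs1, the short-chain enoyl-CoA hydratase, had 0 to 4 counts per library and 76 counts in the 99 libraries together, and it gets no further value below.

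The libraries came from 33 male rats of an F1 cross (mothers Wistar Kyoto, fathers Lewis). Polyadenylated RNA was sequenced once from the left ventricle (LV), once from the septum between the ventricles (Spt) and once from the right ventricle (RV) of each. A clip that did not constrict the vessel at surgery was placed around the aorta (AOB) or the pulmonary artery (PAB) of young rats, so that growth of the animal produced the pressure load, and sham animals had surgery without it. At the compensated stage, 7 weeks after surgery and at an age of 11 weeks, there were 7 Sham-H, 7 PAB-H and 7 AOB-H animals. At the failure stage, 2 Sham-RF and 3 PAB-F animals were sampled after 21 weeks at an age of 27 weeks, and 3 Sham-LF and 4 AOB-F animals after 24 weeks at an age of 30 weeks. Each library is 1 chamber of 1 animal, and in bulk tissue fewer cardiomyocytes and less RNA per cardiomyocyte cannot be told apart.

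Long-chain fatty acids are freed from lipoproteins by lipoprotein lipase (Lpl), cross the membrane with help from Cd36 and Slc27a1, and are bound in the cytosol by Fabp3. Acsl1 couples them to CoA, and Cpt1b or Cpt1a, Slc25a20 and Cpt2 move the acyl group into the mitochondrion, where each turn of β-oxidation dehydrogenates, hydrates, oxidises and cleaves the chain. The healthy adult heart draws most of its ATP from this pathway, and its genes are classical targets of the nuclear receptor PPARα (Ppara) and its coactivator PGC-1α (Ppargc1a).

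The total count per library ranged from 12.1 to 24.2 M (mega) with a median of 17.4 M. The RV minus LV difference over 50 chamber genes chosen in the other animals had the opposite sign in 3 of 33 animals, namely AOB-H replicate 1, PAB-H replicate 2 and Sham-H replicate 6. Leaving these animals out left the number of members called at 0 in each of the 13 comparisons that use their LV or RV libraries. Medians without them, or for the AOB stages a count of members, stand beside the results that use them. Library numbers in the labels fall into 3 series that cut across the banding groups of the compensated stage, and all failure-stage LV and RV libraries belong to series 2. Series 1 holds replicates 1 and 2 of the compensated-stage groups in both ventricles.

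Promoter sequence was read for 28 members from RefSeq (rat build GRCr8) to show where the short AGGTCA element bound by nuclear receptors lies. Both strands of the 250 bases before the annotated start were searched, and 5 of 28 members, or 17.9%, held AGGTCA, against 14.78% of 27457 genes. Windows of the 4 tested members among them are given in the direction of the gene, with the element or its reverse complement in capitals. Acadvl (very long-chain acyl-CoA dehydrogenase) lies on the minus strand at chr10:55236858-55236885 and chr10:55236706-55236733. Eci1 (an enoyl-CoA isomerase) lies on the plus strand at chr10:13961145-13961172, Slc27a1 on the plus strand at chr16:18312717-18312741 and Ucp3 (an uncoupling protein) on the plus strand at chr1:164227744-164227771 and chr1:164227849-164227876.
Acadvl, far window: tggatcaccctAGGTCAagtagaataca
Acadvl, near window: gacgggagaagAGGTCAgtggtcaaggc
Eci1: ctggctgatctTGACCTcctgaagggcg
Slc27a1: gtcctcatTGACCTctggctgtccg
Ucp3, far window: tacagagccccAGGTCAcggaagctaaa
Ucp3, near window: aattaggtttcAGGTCAgctggtgcata
The full direct repeat to which PPAR heterodimers bind, searched as AGGNCANAGGNCA, was in 0 of 28 members and in 0.38% of all genes, and the ERR element TCAAGGTCA was in 0 of 28 members and in 0.4% of all genes. A letter match describes the window and says nothing about binding.

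Levels per length in the sham heart differed widely between members. In the LV of the 7 Sham-H animals, the fatty acid binding protein Fabp3 had a deposited FPKM of 7110 ± 863 (SD, n = 7), ranging from 5810 to 8560. The long-chain dehydrogenase Acadl followed at 1430 ± 80.4, and the electron transfer flavoprotein subunit Etfb at 810 ± 184. Fabp3 stood clear of Acadl, whose libraries lay between 1310 and 1520. From Etfb downwards the neighbours in the order overlapped: Lpl was at 784 ± 245, the thiolase Acaa2 at 709 ± 79.1, the medium-chain dehydrogenase Acadm at 697 ± 104, the trifunctional protein subunit Hadhb at 690 ± 144 and Etfa at 660 ± 45.6 FPKM. The carnitine palmitoyltransferase of muscle, Cpt1b, was at 208 ± 24.7 FPKM, and the liver form Cpt1a at 14.0 ± 3.28 with all 7 libraries lower than every Cpt1b library. Lower means still were those of the regulators Ppargc1a, at 8.92 ± 2.56, and Ppara, at 5.28 ± 2.89 FPKM. The peroxisomal bifunctional enzyme Ehhadh was at 3.51 ± 0.723, Ucp3 at 2.02 ± 0.865 and the lipase inhibitor Angptl4 at 0.764 ± 0.584 FPKM. Angptl4 in this group rests on 8 to 68 counts per library, so its fold changes carry wide errors.

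**Figure D1:**
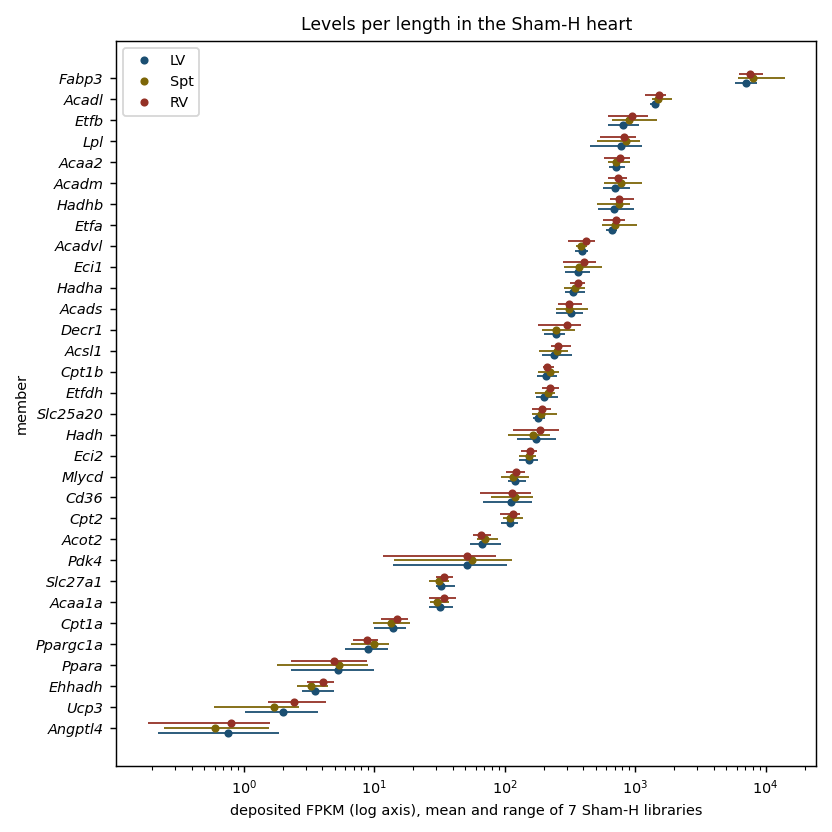
Deposited FPKM (horizontal log axis) of the 32 tested members in Sham-H, with a point for the mean and a line for the range of the 7 libraries of each chamber (LV blue, Spt ochre, RV red). Fabp3 stands apart at the top, Angptl4 and Ucp3 lie at the bottom.

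No member differed between chambers of the sham heart past the test. In RV against LV of Sham-H, 27 of 32 members were higher and 5 lower, with a median log2 difference of 0.10 (0.12 without the 3 animals named above), and 0 passed the quasi-likelihood test of edgeR (p adjusted by Benjamini-Hochberg over all genes, threshold 0.05). The share called of all genes was 0%. Without the 3 animals it was 1.39%, and 0 members were called there too. The members with the lowest unadjusted p in either direction were Etfdh, which passes electrons from the flavoprotein to ubiquinone, at a log2 difference of 0.15 ± 0.09 (SE) and the short-chain dehydrogenase Acads at -0.05 ± 0.12. Spt against LV gave a median of 0.04 with 0 members called, where 0.0923% of all genes passed, and Acadm was at 0.17 ± 0.12 and Angptl4 at -0.39 ± 0.44. Spt against RV gave a median of -0.05 with 0 members called against 0.772% of all genes, and Ppargc1a was at 0.17 ± 0.20 and the peroxisomal thiolase Acaa1a at -0.19 ± 0.11. The Sham-H septum holds no series 1 library, unlike both ventricles, so chamber and library series are partly confounded in the Spt comparisons. With series as a covariate, the medians were 0.03 against LV and -0.05 against RV. Without the 3 animals they were 0.03 and -0.10, with 0 members called against 0.201% and 2.11% of all genes.

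Across the 25 comparisons, 0 members passed the edgeR test at an adjusted p under 0.05 over all genes. DESeq2 on the same counts called 4 members in AOB-F LV (1.69% of all genes), 1 in AOB-F Spt (0.985%), 1 in Sham-LF Spt (2.8%) and 0 in the other 22 comparisons. At an unadjusted edgeR p under 0.05, and counting both directions, there were 19 members in AOB-F LV, 15 in AOB-F Spt, 8 in AOB-F RV, 14 in AOB-H Spt and 14 in the test of the AOB stages, and from 0 to 4 in each of the other 20 comparisons. Members are therefore described by their values, with differences on the log2 scale from the fit of their chamber and levels in CPM (counts scaled to library size) with TMM factors (trimmed mean of M values) over the 99 libraries. Outside AOB-F and PAB-F, the members named in a comparison are those with the lowest unadjusted p in either direction. The p-values are two-sided.

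The failing aortic-banded LV had the lowest levels of the list. In AOB-F against Sham-LF, 31 of 32 members were lower and 1 was higher, with a median log2 difference of -0.46, against a median of 0.01 over all 11703 genes tested. No member passed the adjusted threshold, which 0.837% of all genes passed, and the lowest adjusted p of a member was 0.0549. An unadjusted p under 0.05 in the lower direction was reached by 19 members, against 5.67% of all genes in that direction. For 12 members all 4 AOB-F libraries lay below all 3 Sham-LF libraries, against 5.98% of all genes. The medians under the other scalings and designs lay between -0.48 and -0.40.

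The libraries of this group did not lie close together. The module score is the median over the 32 members of the log2(CPM + 0.5) difference from the Sham-H mean of the same chamber. It was -0.80, -0.34, -0.12 and -0.69 in AOB-F replicates 1 to 4, and -0.06, -0.04 and -0.01 in the 3 Sham-LF libraries. All 4 AOB-F scores lay below all 3 of Sham-LF, with replicates 1 and 4 lowest and replicate 3 nearest to the shams. Of the 32 members, 28, 25, 12 and 28 were below all 3 Sham-LF libraries in AOB-F replicates 1 to 4, and of all genes tested 31.9%, 25.2%, 22.6% and 31.2% were. Summed over the members, CPM was 12300, 17300, 19400 and 13200 in AOB-F and 20900, 21900 and 20800 in Sham-LF.

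**Figure D2:**
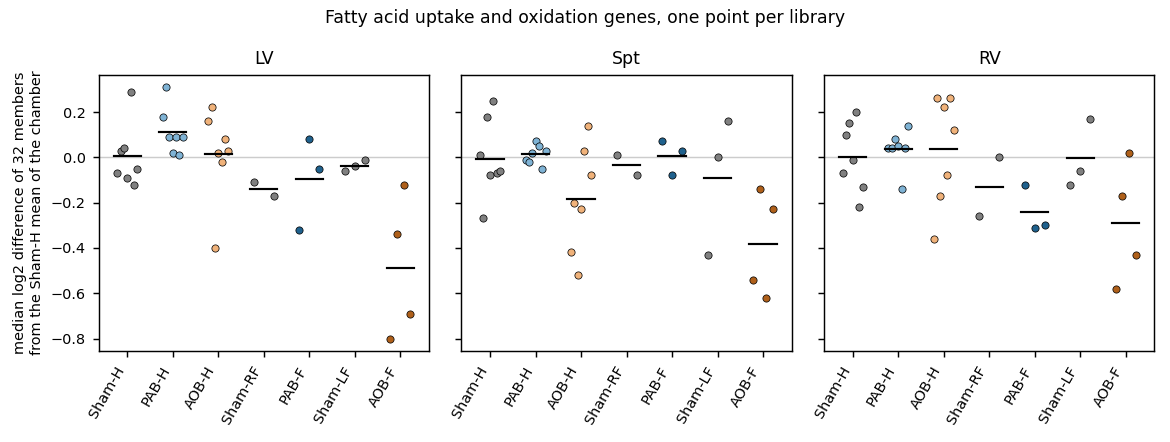
Module score (vertical axis, median log2 difference of 32 members from the Sham-H mean of the chamber) of each of the 99 libraries, with 1 point per library, columns for the 7 conditions, a panel per chamber and a bar at the group mean. AOB-F lies lowest in each chamber on average, with LV points from -0.80 to -0.12, while Sham-LF in LV lies between -0.06 and -0.01.

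Among the single members the peroxisomal enzyme Ehhadh, which hydrates and oxidises long-chain and dicarboxylic acyl-CoA, had the lowest p. Its CPM in the LV was 2.30, 5.48, 7.30 and 3.17 in AOB-F and 9.39, 9.00 and 9.20 in Sham-LF. The groups did not overlap, and the log2 difference was -1.0 ± 0.26 (SE; 4 and 3 libraries; edgeR adjusted p = 0.0549). Acot2, the mitochondrial thioesterase that releases fatty acids from CoA, was at 69.3, 111, 147 and 75.0 CPM against 147, 178 and 166. AOB-F replicate 3 reached the lowest sham library, and the log2 difference was -0.70 ± 0.19 (edgeR adjusted p = 0.0676). Eci2, an isomerase that prepares unsaturated chains for β-oxidation, was at 137, 183, 212 and 148 CPM against 232, 231 and 246, with no overlap and a log2 difference of -0.48 ± 0.13 (edgeR adjusted p = 0.0691).

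DESeq2 put Ehhadh at an adjusted p of 0.0137, Acot2 at 0.0297, Fabp3 at 0.0312 and Eci2 at 0.0317. The number of members called by edgeR depended on single AOB-F animals. Without AOB-F replicate 3, the animal nearest to the shams, 17 members were called and 5.44% of all genes passed. Those were Acaa2, Acadm, Acads, Acadvl, Acot2, Acsl1, Cpt2, Eci1, Eci2, Ehhadh, Etfdh, Fabp3, Hadh, Hadha, Hadhb, Mlycd and Slc25a20. Without AOB-F replicate 2 the members called were Acot2, Eci2, Ehhadh, Fabp3 and Hadha, 5 in all, and 2.24% of all genes passed. Omitting any other single animal of the 2 groups left 0 members called, and the median over the members ranged from -0.58 to -0.33 over these omissions.

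Of the uptake genes in the AOB-F LV, only Fabp3 lay more than 2 standard errors from 0. Fabp3 was at 2330, 3410, 3560 and 2210 CPM against 4340, 5090 and 4250 in Sham-LF, without overlap, and the log2 difference was -0.67 ± 0.19 (edgeR adjusted p = 0.0757). Lpl was at a log2 difference of -0.28 ± 0.26, Slc27a1 at -0.25 ± 0.14 and Cd36 at -0.22 ± 0.30. Angptl4, which inhibits Lpl, was the 1 member higher, at 0.30 ± 0.58. The uptake genes other than Fabp3 thus lay within 2 standard errors of 0 in every case, which does not show that they were unchanged. Whether they differed from Fabp3 in their response was not tested.

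Along the carnitine shuttle the entry step and the later steps had unlike values. The CPM of Cpt1b, whose inhibition by malonyl-CoA sets the rate of mitochondrial entry, was 530, 553, 601 and 489 in AOB-F and 574, 575 and 600 in Sham-LF, which overlap, with a log2 difference of -0.10 ± 0.10. Acsl1 was at 439, 620, 797 and 462 CPM against 871, 791 and 907, a log2 difference of -0.56 ± 0.18. Cpt2, on the inner membrane, was at 140, 203, 233 and 156 CPM against 243, 244 and 254, without overlap, a log2 difference of -0.44 ± 0.14. The carnitine carrier Slc25a20 was at -0.37 ± 0.13 and Cpt1a at -0.18 ± 0.19 on the log2 scale. Whether Cpt1b and Cpt2 differed in their response was not tested.

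In the β-oxidation spiral, members of every step were lower in the AOB-F LV and none passed the test. The 4 members for hydration, hydroxyacyl oxidation and thiolysis had a median log2 difference of -0.60, and the 4 acyl-CoA dehydrogenases one of -0.46. Hadh, the hydroxyacyl-CoA dehydrogenase for shorter chains, was at 96.5, 159, 246 and 87.2 CPM against 266, 221 and 310. Replicate 3 overlapped the shams, and the log2 difference was -0.85 ± 0.28. Both subunits of the trifunctional protein were close to each other, with Hadha at -0.52 ± 0.16 and Hadhb at -0.58 ± 0.19. Hadha was at 396, 659, 762 and 435 CPM against 811, 819 and 794, without overlap.

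Among the dehydrogenases, Acadl was nearest to its sham level. Acadm was at 786, 1140, 1320 and 845 CPM against 1400, 1500 and 1370 in Sham-LF, a log2 difference of -0.48 ± 0.16, and the groups did not overlap. Acadvl and Acads were both at -0.46 on the log2 scale, and Acadl was at -0.18 ± 0.14 with 1420, 2100, 2050 and 1820 CPM against 2050, 2280 and 1940. The 3 auxiliary enzymes for unsaturated chains had a median of -0.58, with Eci1 at -0.62 ± 0.22 and the dienoyl-CoA reductase Decr1 at -0.58 ± 0.23. The electron transfer members had a median of -0.34, with Etfdh at -0.34 ± 0.12, Etfb at -0.34 ± 0.25 and Etfa at -0.27 ± 0.12.

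Of the regulators and fuel-choice genes, Pdk4, Ppara and Ucp3 varied more within groups than the β-oxidation enzymes. Over all groups their SD of log2 CPM was 0.92, 0.68 and 0.64, against 0.44 for Hadh. Ppargc1a, at 0.37, Acot2, at 0.26, and Mlycd, at 0.21, did not exceed Hadh. Ppara was at 10.3, 6.58, 12.2 and 8.81 CPM in the AOB-F LV against 10.3, 5.19 and 15.7 in Sham-LF, a log2 difference of -0.14 ± 0.54. Ppargc1a was at 15.2, 12.1, 16.3 and 12.0 CPM against 22.0, 13.2 and 22.3, a log2 difference of -0.47 ± 0.31. For both, the groups overlapped. The pyruvate dehydrogenase kinase Pdk4, which turns the cell from glucose to fat, was at -0.18 ± 0.65 and Ucp3 at -0.74 ± 0.48, while Mlycd, the malonyl-CoA decarboxylase, was at -0.48 ± 0.16. Mlycd was at 122, 184, 222 and 123 CPM in AOB-F against 218, 240 and 224, so that only replicate 3 reached the shams.

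**Figure D3:**
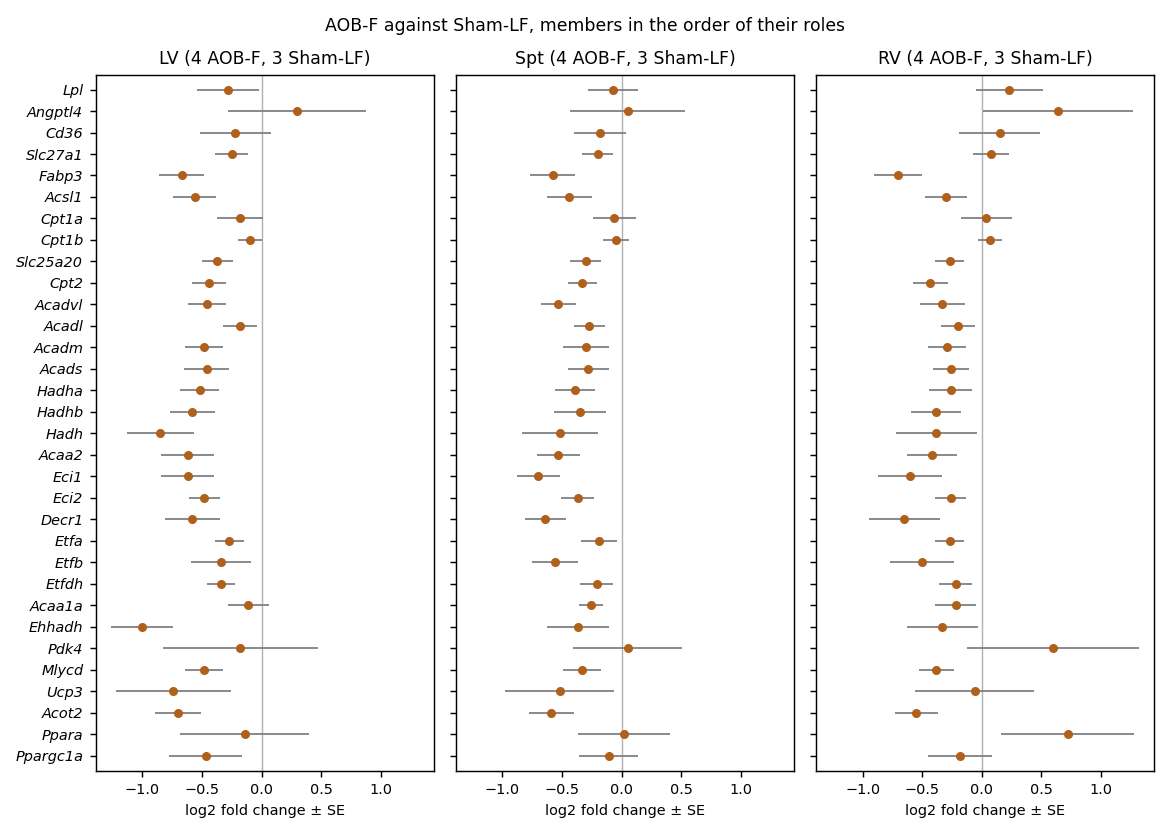
Log2 difference of AOB-F from Sham-LF (horizontal axis, point ± SE from the edgeR fit of the chamber) for the 32 tested members in the order of their roles, with a panel each for LV, Spt and RV (4 AOB-F and 3 Sham-LF libraries in each). In LV 31 of 32 points lie left of 0 with Ehhadh farthest, Cpt1b lies near 0 in all 3 panels, and Pdk4, Ppara and Angptl4 have the widest errors.

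In the AOB-F septum, which shares the aortic load, 29 of 32 members were lower and 3 higher, with a median log2 difference of -0.31 against -0.01 over all genes tested. No member was called, where 0.232% of all genes passed, and 15 members had an unadjusted p under 0.05 in the lower direction against 6.5% of all genes. In 4 members the groups did not overlap in that direction, against 4.5% of all genes. Module scores were -0.54, -0.14, -0.62 and -0.23 in AOB-F replicates 1 to 4 and -0.43, 0.00 and 0.16 in Sham-LF, so that Sham-LF replicate 1 lay among the banded animals.

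Eci1 had the lowest p in the septum. It was at 221, 295, 184 and 304 CPM in AOB-F and 394, 448 and 368 in Sham-LF, without overlap, a log2 difference of -0.70 ± 0.18 (edgeR adjusted p = 0.0871; DESeq2 adjusted p = 0.0384). Decr1 was at 167, 224, 147 and 240 CPM against 281, 342 and 275, a log2 difference of -0.64 ± 0.17 (edgeR adjusted p = 0.0958), and Acadvl at 514, 742, 489 and 687 CPM against 757, 972 and 868, a difference of -0.53 ± 0.15 (edgeR adjusted p = 0.105). Neither overlapped its shams. The 3 auxiliary enzymes had a median of -0.64, while Cpt1b, at -0.05 ± 0.11, and the regulators Ppara, at 0.02 ± 0.39, and Ppargc1a, at -0.11 ± 0.25, lay close to 0. Ehhadh was at 4.42, 8.02, 3.42 and 8.01 CPM against 6.36, 7.21 and 9.44 and overlapped, unlike in the LV. Without AOB-F replicate 2 edgeR called Acadvl and Eci1 and passed 0.757% of all genes, and without AOB-F replicate 4 it called Decr1 and Eci1 and passed 2.01%. The 15 members with an unadjusted p under 0.05 became 8 without AOB-F replicate 1 or Sham-LF replicate 3, 7 without AOB-F replicate 3 and 6 without Sham-LF replicate 2. The median ranged from -0.46 to -0.18 over all single omissions.

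In the AOB-F right ventricle, which carries no direct aortic load, 24 of 32 members were lower and 8 higher, with a median log2 difference of -0.27 against 0.03 over all genes. None was called, nor was any other gene (0%), 8 members had an unadjusted p under 0.05 in the lower direction against 5.95% of all genes, and the groups did not overlap in 3 members against 4.54% of all genes. The 8 became 3 without AOB-F replicate 1, 4 without replicate 4, 13 without replicate 2 and 17 without replicate 3. Module scores were -0.58, -0.17, 0.02 and -0.43 against -0.12, -0.06 and 0.17 in Sham-LF. Replicates 1 and 4 again had the lowest scores, as in the LV. Of the 32 members, 22, 11, 4 and 22 were below all 3 shams in replicates 1 to 4, and of all genes tested 30.3%, 21.8%, 17% and 32.6% were.

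Fabp3 was at 2480, 4650, 4740 and 2410 CPM in this chamber against 6450, 5780 and 5210, without overlap, a log2 difference of -0.70 ± 0.20 (edgeR adjusted p = 0.328). Cpt2 was at 164, 238, 275 and 197 CPM against 298, 281 and 306, a difference of -0.43 ± 0.15, and Acot2 at 75.9, 135, 159 and 80.3 CPM against 165, 149 and 182, a difference of -0.55 ± 0.18. Cpt2 did not overlap, and AOB-F replicate 3 of Acot2 did. Decr1 split within the banded group, at 117 and 138 CPM in replicates 1 and 4 and 365 and 395 in replicates 2 and 3, with Sham-LF at 405, 412 and 382. The uptake genes other than Fabp3 were not lower here, with Lpl at 0.23 ± 0.28 and Cd36 at 0.15 ± 0.34, and Ppara was at 0.72 ± 0.56.

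The difference between the LV and RV responses of AOB-F was tested itself and was not called. The median over the members of the LV response minus the RV response was -0.19, with 26 members lower and 6 higher, and 0 of 32 members and 0% of all genes passed. At an unadjusted p under 0.05 the count of members was also 0, and DESeq2 called 0. This fit treats the chambers of 1 animal as independent. With the animal as a block, 4 members had an unadjusted edgeR p under 0.05 in the lower direction. Without Sham-LF replicate 3 there were 3. In both fits 0 members and 0% of all genes were called, and the share of all genes at that unadjusted p was not determined. Ehhadh had the lowest p, at -0.66 ± 0.39 (edgeR adjusted p = 0.926), and of the members with a positive difference Acaa1a had, at 0.11 ± 0.22.

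A sum of atrial marker genes was highest in the AOB-F libraries with the lowest module scores. A list of 8 atrial cardiomyocyte genes, led by the natriuretic peptide gene Nppa, summed to 17700, 3860, 2360 and 16900 CPM in the LV of AOB-F replicates 1 to 4 and to 1010, 991 and 777 in Sham-LF. In the septum it summed to 14300, 3430, 11700 and 2160 against 1340, 866 and 556, and in the RV to 6350, 2410, 428 and 8860 against 374, 392 and 2440. In each chamber the 2 libraries with the lowest module scores, replicates 1 and 4 in LV and RV and 1 and 3 in the septum, had the highest atrial sums. Of the 8 atrial genes, 7 were higher in LV and 4 in each of Spt and RV, and Nppa alone passed the test, in LV. Nppa does not mark atrial tissue alone here, since the paper reports its rise in isolated LV cardiomyocytes after AOB. Ventricular cardiomyocyte genes summed in the LV to 71600, 89200, 87600 and 77100 CPM against 92500, 107000 and 86100, and 8 of its 10 genes were lower. In the LV, the 8 macrophage genes were all higher and 5 of the 7 fibroblast genes tested were higher, with Postn called. No marker of the ventricular cardiomyocyte list was at 0 in any group, and the part of these markers in the members' values was not tested.

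The compensated aortic-banded LV did not share these values. In AOB-H against Sham-H, 18 of 32 members were higher and 14 lower in the LV, with a median log2 difference of 0.01 (-0.03 without the 3 animals named above), and 0 members and 0% of all genes were called. Pdk4 had the highest difference, 0.71 ± 0.45, with a lowest, median and highest value of 19.7, 134 and 196 CPM in AOB-H against 20.2, 68.3 and 148 in Sham-H. Of the members that were lower, Acadvl was at -0.13 ± 0.11, with 564, 715 and 964 CPM against 736, 824 and 930. Both overlapped widely. The failure-stage response minus the compensated one was tested in the LV, and its median over the members was -0.44, with 30 of 32 lower. None was called, as for all genes (0%), and 14 members had an unadjusted p under 0.05 in the lower direction against 2.78% of all genes. Within library series 2, to which all failing LV libraries belong, the median was -0.24 and 1 member had such a p. The 14 members became 9 without AOB-F replicate 1 or 4, 22 without AOB-F replicate 3 and 11 without the 3 animals. Etfdh had the lowest p of that difference, at -0.45 ± 0.14 (edgeR adjusted p = 0.462), and Angptl4 was the highest, at 0.30 ± 0.71.

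With all library series together, the compensated septum was the 1 early group with lower values across most of the list. In AOB-H Spt, 25 of 32 members were lower and 7 higher than in Sham-H, with a median log2 difference of -0.19. None was called, nor was any gene (0%), while DESeq2 called 0 members, and 14 members had an unadjusted p under 0.05 in the lower direction against 10.3% of all genes. Acaa1a had the lowest p, with 34.5, 38.1 and 45.4 CPM as lowest, median and highest value against 41.0, 46.2 and 56.1, a log2 difference of -0.25 ± 0.07 (edgeR adjusted p = 0.187). Decr1 was at 153, 204 and 281 CPM against 221, 284 and 391 (-0.39 ± 0.12) and Acadvl at 507, 601 and 899 against 745, 783 and 905 (-0.27 ± 0.10). The ranges overlapped for all 3. Of the members that were higher, Pdk4 was at 0.57 ± 0.32. Module scores of the 7 AOB-H septa were -0.42, -0.20, -0.52, -0.23, 0.03, 0.14 and -0.08, and within library series 2 and 3 the medians were -0.33 and -0.14, with 1 and 2 members at an unadjusted p under 0.05 in the lower direction. The 14 members became 9 without AOB-H replicate 1 or 3 and 7 without Sham-H replicate 5. Within series 2 the ventricles of AOB-H were also lower in most members, 24 of 32 in LV (median -0.18) and 28 of 32 in RV (-0.12), whereas within series 1 this was so of 1 and 20 members (0.18 and -0.03) and within series 3 of 7 and 0 members (0.13 and 0.33).

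The AOB-H right ventricle had 26 of 32 members higher, with a median of 0.06 (0.08 without the 3 animals) and 0 members and 0% of all genes called. Ucp3, the highest, was at 2.52, 9.11 and 13.1 CPM against 3.68, 5.02 and 10.2 in Sham-H, a log2 difference of 0.61 ± 0.35, and the groups overlapped. Acaa1a was at -0.05 ± 0.12.

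Pulmonary banding at the compensated stage gave small medians in each chamber with all library series together, and 0 members and 0% of all genes were called in LV, Spt or RV. Median log2 differences were 0.10 for LV (0.05 without the 3 animals), 0.01 for Spt and 0.04 for RV (-0.01 without them). In the loaded RV, 22 members were higher and 10 lower, and Cpt1b, the member with the smallest spread between libraries, was at 587, 678 and 710 CPM against 556, 592 and 681, a difference of 0.13 ± 0.07. Ucp3 was the highest member in the other chambers. In the LV it was at 3.91, 7.57 and 14.8 CPM against 2.48, 4.83 and 8.81 (0.76 ± 0.34), and in Spt at 2.50, 8.75 and 12.9 against 1.42, 4.56 and 6.34 (0.87 ± 0.34). Of the members that were lower, Acaa1a had the lowest p in all 3 chambers, at -0.09 ± 0.12 for LV, -0.12 ± 0.07 for Spt and -0.12 ± 0.12 for RV. The groups overlapped in each case.

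Pulmonary banding at the failure stage compared 3 PAB-F with 2 Sham-RF animals, and 0 members and 0% of all genes were called in any chamber. In the loaded RV, 20 of 32 members were lower and 12 higher, with a median of -0.04. The module scores were -0.12, -0.31 and -0.30 in PAB-F and -0.26 and 0.00 in Sham-RF, which overlap. With so few animals, groups that do not overlap are common: 8 members were lower without overlap, where 18.5% of all genes were. Eci1 was at 362, 243 and 237 CPM against 435 and 426 (-0.62 ± 0.32) and Etfb at 720, 582 and 486 against 943 and 849 (-0.59 ± 0.32). Cpt1b went the other way, at 604, 625 and 633 CPM against 462 and 553, a log2 difference of 0.28 ± 0.12 (edgeR adjusted p = 0.552). All 3 stood outside the sham range. The median was -0.23 without Sham-RF replicate 1 and turned to 0.15 without Sham-RF replicate 2.

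In the PAB-F LV and septum the values were near or above sham. The LV had 27 of 32 members higher with a median of 0.07, but 18 were lower without PAB-F replicate 2, and 2 members were higher without overlap against 7.57% of all genes. Angptl4 was one of these, at 2.43, 4.71 and 2.88 CPM against 1.88 and 0.634 (1.40 ± 0.71). The septum had 21 members higher and 11 lower with a median of 0.09, and 11 members were higher without overlap against 21.4% of all genes. Those included Angptl4 at 3.59, 3.55 and 3.62 CPM against 2.01 and 1.68 (0.96 ± 0.58), Ppara at 13.8, 14.0 and 14.2 against 8.83 and 7.71 (0.76 ± 0.46) and Pdk4 at 125, 131 and 159 against 86.3 and 62.1 (0.90 ± 0.57).

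Neither test of a difference between pulmonary responses called a member. The RV response minus the LV response of PAB-F had a median of -0.17 (0.01 without Sham-RF replicate 2) with 28 of 32 members lower, and 0 members and 0% of all genes passed. Slc27a1, the fatty acid transporter, had the lowest p, at -0.52 ± 0.24 (edgeR adjusted p = 0.988), and Cpt1b was at 0.14 ± 0.17. The failure-stage minus the compensated response in the RV had a median of -0.10 (-0.07 without the 3 animals, 0.07 without Sham-RF replicate 2), again with 0 members and 0% of all genes called, and Angptl4 was at 1.37 ± 0.92 and Slc27a1 at -0.30 ± 0.20.

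**Figure D4:**
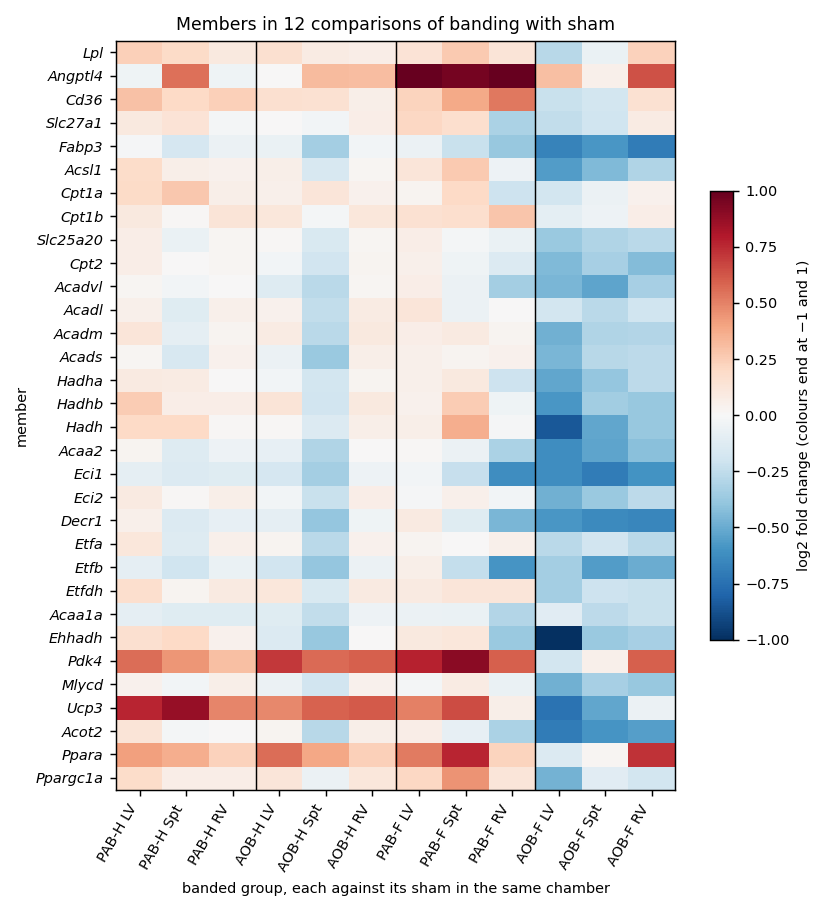
Log2 difference of each tested member (rows, in the order of their roles) in the 12 comparisons of a banded group with its sham in the same chamber (columns), from blue at -1 or lower to red at 1 or higher. The AOB-F columns are blue for most enzymes, with Ehhadh at -1.0 in LV, whereas Pdk4 and Ucp3 are red in most other columns, and 0 cells passed the adjusted threshold.

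No member was called between older and younger shams in any chamber. Age and time after surgery cannot be told apart, and library series also differs between these groups. In LV, Sham-RF against Sham-H had 31 of 32 members lower with a median of -0.16 (-0.15 without the 3 animals) and 0 called against 0.0256% of all genes. Sham-LF against Sham-H had 24 lower with a median of -0.05 (-0.08 without the 3 animals) and 0 called against 0.00854%. Cpt1b was at 497 and 483 CPM in Sham-RF, below all 7 Sham-H libraries (504 to 718), a log2 difference of -0.28 ± 0.11 (edgeR adjusted p = 0.96). Ucp3 was at 12.6, 11.8 and 8.02 CPM in the LV of Sham-LF against 2.48, 4.83 and 8.81 as lowest, median and highest in Sham-H (1.15 ± 0.42), and Slc27a1 was at -0.19 ± 0.12.

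Of the older sham chambers, the septum of Sham-LF came nearest to a call. Its median was -0.07, and 0 members passed where 1.73% of all genes did. Ppargc1a was at 9.55, 11.8 and 20.3 CPM against 16.4, 24.8 and 31.8 in Sham-H, a log2 difference of -0.81 ± 0.23 (edgeR adjusted p = 0.0584; DESeq2 adjusted p = 0.0172). Ucp3 was at 8.97, 12.4 and 8.27 CPM, above all 7 Sham-H libraries (1.42 to 6.34), a difference of 1.29 ± 0.41 (edgeR adjusted p = 0.0915). Without Sham-LF replicate 3 the members called were Ppargc1a, Hadh and Hadhb, and without Sham-H replicate 2, 4 or 5 Ppargc1a alone was called. All genes called made up 11% without Sham-LF replicate 3 and 2.72%, 2.27% and 4.87% without these Sham-H replicates. The median turned to 0.08 without Sham-LF replicate 1. In Sham-RF Spt the median was -0.06 with 0 members and 0% of all genes called, Ucp3 was at 0.81 ± 0.49 and Ppargc1a at -0.64 ± 0.27. In the RV, medians were -0.15 in Sham-RF (0 members and 0% of all genes called) and -0.04 in Sham-LF (0 members against 0.0682% of all genes). Without the 3 animals they were -0.18 and -0.06. Ucp3 was at 0.41 ± 0.52 in Sham-RF and 0.86 ± 0.44 in Sham-LF. Cpt1b in Sham-RF was at -0.24 ± 0.11, and Hadh in Sham-LF was at 131, 153 and 385 CPM (-0.48 ± 0.31).

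Library series set some members apart at the compensated stage. Averaged over Sham-H, PAB-H and AOB-H, series 3 minus series 1 in log2 was 2.23 in LV and 2.25 in RV for Pdk4, 1.43 and 1.5 for Ppara, 0.82 and 0.94 for Cd36 and 0.73 and 0.81 for Lpl. Etfb had the opposite sign, at -0.57 in LV and -0.34 in RV, as did Decr1 at -0.51 and -0.29. In the LV the 6 series 1 libraries lay below the 15 others without overlap for Lpl, Cd36 and Ppara and above them for Fabp3, and for 28 members they overlapped. Ppara, for example, was at 4.71 to 6.58 CPM in series 1 and at 6.81 to 30.6 CPM in the others. In the RV all 32 members overlapped. What differed between the series besides their library numbers is not given in the sources used here, and its part in these members' values was not tested.

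**Figure D5:**
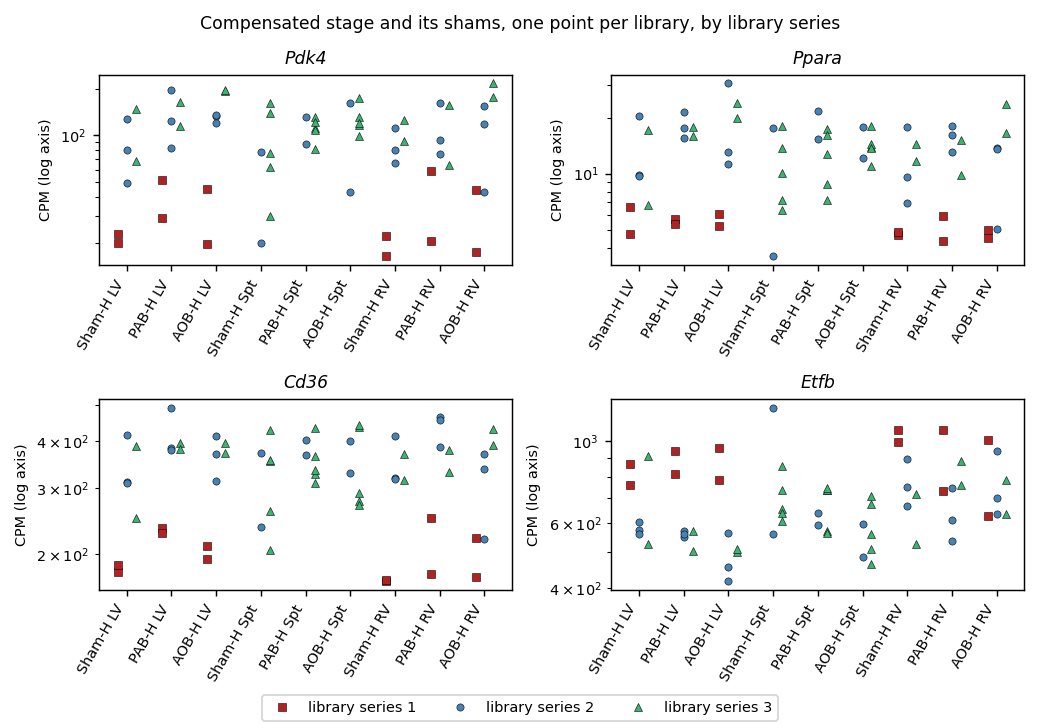
CPM (vertical log axes) of Pdk4, Ppara, Cd36 and Etfb in the compensated-stage groups, with 1 point per library and library series marked by colour and shape (1 red square, 2 blue circle, 3 green triangle; no series 1 library in Spt). In LV the series 1 squares lie lowest for Ppara, at 4.71 to 6.58 CPM against 6.81 to 30.6 in the others, and likewise for Cd36, while for Etfb they lie among the highest.

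Members varied together within groups, as a description over 99 libraries that share depth, composition and animals. Library series was not subtracted. After subtracting each group's mean, the median Pearson r over the 496 pairs of members was 0.49, with 243 pairs above 0.5 and 76 below 0. The closest pairs were Eci1 with Decr1 at 0.96, Lpl with Cd36 at 0.94 and Cpt2 with Acaa2 at 0.94, and the lowest was Ppara with Etfb at -0.79. In the compensated-stage LV, series 3 minus series 1 was -0.45 for Eci1, -0.51 for Decr1, 0.73 for Lpl and 0.82 for Cd36. It was -0.26 for Cpt2, -0.34 for Acaa2, 1.43 for Ppara and -0.57 for Etfb. The part of series in the r values and spreads given here was not tested. Most typical of the list was Mlycd, whose median r with the other members was 0.71, followed by Cpt2 at 0.70 and Acadvl at 0.69. Ppara, at 0.06, and Angptl4, at 0.09, had the lowest median r. For Ppara this median lay between strong values of both signs, from 0.88 with Cd36 to -0.79 with Etfb. The highest r of Angptl4 with any member was 0.34. The within-group SD of log2 CPM was largest for Pdk4 (0.92), Ppara (0.68), Ucp3 (0.64) and Angptl4 (0.58) and smallest for Cpt1b (0.13). Between chambers of the same animal, the deviation of the module score from its group had an r of 0.48 for LV with RV, 0.34 for Spt with RV and 0.16 for LV with Spt over 33 animals. LV and RV of an animal always share a library series. The septum shares it only in replicates 5, 6 and 7 of the compensated-stage groups, so chamber pair and series cannot be told apart. The animals of opposite chamber sign were kept here.

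Neighbouring pathways had the same sign in the AOB-F LV in most genes and were not called either. All 16 tested genes of the tricarboxylic acid cycle, which burns the acetyl-CoA from β-oxidation, were lower, with a median log2 difference of -0.30. Of these, 11 had an unadjusted p under 0.05, against 5.67% of all genes in that direction. Of 18 other regulators of the pathway 16 were lower (median -0.22), of 15 other peroxisomal genes 13 (-0.14), of 12 genes of triglyceride storage and lipolysis 10 (-0.23), of 14 genes of malonyl-CoA and pyruvate control 10 (-0.13), of 13 other PPAR-responsive genes 9 (-0.14) and of 13 other uptake genes 8 (-0.14). These stand beside the members' -0.46 and the 0.01 over all genes, of which 52.8% were higher. In the 3 chambers of AOB-F, Pdk3, a pyruvate dehydrogenase kinase, was the 1 gene of these 7 lists that was called, and it rose in Spt by 0.74 on the log2 scale (edgeR adjusted p = 0.0411). Of all genes, 0.232% were called in Spt.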

How the data were processed

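RNA was taken from LV, Spt and RV of 33 rats. Per the study's methods, the authors made directional poly(A) libraries, used Trim Galore on single-end reads, aligned to Rnor6.0 (UCSC annotation) with STAR and counted reads per gene with featureCounts. Whether counting used the strand is not given in the sources used here. The deposited table holds whole-number counts, a signal that the authors made by dividing the counts by 1 DESeq2 size factor per library, and FPKM values, which the authors scaled further by gene length. Counts entered every test, FPKM served to compare levels between genes, and the normalized signal was only checked against the counts.

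Groups followed the titles and source names. RV samples carry the left ventricle in their tissue field, the column name in 1 description (Sham-LF replicate 1, RV) names the other older sham group, and a sample sheet of the study exchanges AOB-F replicates 1 and 2 in Spt, which bears on animal numbers but not on groups. No 2 libraries held identical counts, and each library is 1 animal's chamber. Sources differ on the age at surgery and on the time of left heart failure, and the labels' weeks are given.

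Genes passing edgeR's default expression filter (11703 in LV, 11624 in Spt, 11734 in RV, 11924 over all) were fitted with the edgeR 4.0.16 quasi-likelihood test (R 4.3.3, limma 3.58.1) and TMM scaling. One fit held the 33 libraries and 7 conditions of a chamber, and another the 99 libraries in 21 groups, for comparisons between chambers and of responses between chambers; chambers of 1 animal were treated as independent there. Adjusted p-values are Benjamini-Hochberg over all genes tested, with a threshold of 0.05. The module score used log2(CPM + 0.5). At the compensated stage, the PAB-H and AOB-H comparisons share the Sham-H animals, while PAB-F and AOB-F each have their own shams. The test was checked on simulated counts. Alternatives were DESeq2 1.42.0 size factors and Wald test, no filter, library series as covariate or within series, only the groups compared, a replicate block, the mean in place of the median, FPKM, centring on all genes and omission of each animal. Omitting series 1 was chosen after seeing the data. Library numbers were not taken to pair animals between arms, since nothing in the labels pairs them and no comparison with 3 or more pairs had every same-numbered pair correlate above 0.1; with only 2 pairs, both did in PAB-F Spt (0.16 and 0.18) and in Sham-RF Spt (0.32 and 0.35).

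Members, pathway lists and marker lists were chosen with earlier results of these data known. In each failing group against its sham, values were given for the 3 members with the lowest unadjusted p, and in other comparisons for 1 higher and 1 lower; further members were described by role after their values were seen. Total counts were 12.1 to 24.2 M per library.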

Additional observations from a re-analysis of the deposited data

Results flagged for a closer look

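The module score and named members were searched group by group, in 67 sets of 4 to 7 library values, so the same libraries recur. Of these sets, 7 held a library whose gap to the nearest other was large against the set's range (Dixon's test at the 95% level, which marks a small share of sets by chance). In the LV of Sham-H, replicate 5 was highest for the module score (0.29), Slc27a1 (132 CPM) and Acadm (1770 CPM). In the LV of AOB-H, replicate 3 had the lowest module score, -0.40, and in the RV of PAB-H replicate 5 had the lowest, -0.14. Angptl4 was highest in Sham-H replicate 6 in Spt, at 2.93 CPM, and in PAB-H replicate 3 in RV, at 3.96 CPM.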

How the results depend on the processing

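The lower values of the members in the LV, Spt and RV of AOB-F kept their direction under each alternative. Counts of members called, 0 throughout in the reported fits, were not stable. In AOB-F LV they were 6 with library series as a covariate, 1 with all 99 libraries in 1 fit and 4 with DESeq2, and from 0 to 17 when 1 animal was left out; all genes called numbered 98 in the reported fit and 366, 143 and 247 under these settings, and 0 with only the groups compared. In AOB-F Spt DESeq2 called 1 member and single omissions 0 to 2, while all genes called numbered 27 and, with DESeq2, 144. In Sham-LF Spt DESeq2 called 1 (2.8% of all genes) and single omissions 0 to 3 (11% of all genes where it was 3). In PAB-F Spt a fit of only the groups compared called 4 (7.1% of all genes).

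Same numbers do not pair animals between arms, so a replicate block within 1 chamber only shares numbers. In comparisons across chambers the block was the animal itself, and there 0 members and at most 0.018% of all genes were called. With the replicate block, the members called were 9 in Sham-RF LV (30.5% of all genes), 8 in PAB-F Spt (13.9%), 3 in AOB-F Spt (1.59%) and 13 in Sham-RF RV (22.6%). In the Sham-RF comparisons with the block, only Sham-H replicates that belong to library series 1 were set against series 2.

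Within library series, some small medians moved: PAB-H LV to 0.27 in series 1 and -0.02 in series 2, AOB-H LV to -0.18 in series 2, PAB-H RV to -0.11 in series 2 and 0.24 in series 3, AOB-H RV to 0.33 in series 3, the AOB stage difference in LV to -0.24 and the PAB stage difference in RV to 0.05 in series 2. Single members that changed sign were Acaa1a at 0.08 (PAB-H LV, series 1), 0.17 (PAB-H RV, series 3), 0.14 (AOB-H RV, series 3) and 0.00 (Spt against RV, series 3), Acadvl at 0.12 (AOB-H LV, series 1), Ucp3 at -0.04 (PAB-H Spt, series 2) and -0.02 (Sham-RF RV, series 2), Angptl4 at 0.41 (Spt against LV, series 2) and 0.01 (without the 3 animals of opposite chamber sign) and Ppargc1a at -0.01 (Spt against RV, series covariate) and -0.04 (series 3). On single omissions the median ranged from -0.23 to 0.15 in PAB-F RV, from -0.27 to 0.07 for the PAB stage difference and from -0.34 to 0.01 for PAB-F RV minus LV, Angptl4 in the AOB stage difference from -0.10 to 0.49, Acaa1a in AOB-F LV minus RV from -0.01 to 0.21 and Cpt1b in PAB-F RV minus LV from 0.00 to 0.30. The cause was not tested for these settings. Failure-stage groups of 2 to 4 animals, shams included, and the spread between them limit what can be called, and Angptl4, Ucp3, Ehhadh and Ppara rest on few counts per library.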
